A study of Homo sapiens with 13 samples.

Results

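The genes described here encode 10 proteins that travel with elongating RNA polymerase II (Pol II): SUPT4H1 and SUPT5H, SUPT6H, SUPT16H, the PAF complex subunits PAF1, CTR9, LEO1, CDC73 and RTF1, and TCEA1. They were chosen by name, as the human Spt4, Spt5, Spt6, FACT, PAF complex and TFIIS genes, and all 10 were found among the 14575 genes with reads. The measurements are 3′ READS libraries, in which each read marks the 3′ end of one poly(A) RNA, so levels of different genes were compared without division by length. The cells were HEK293 Flp-in T-REx, a human embryonic kidney line, carrying a pcDNA5 construct for an α-amanitin resistant (Amr) form of Rpb1, the largest Pol II subunit. Both groups were given doxycycline at 2 µg/ml, for 24 hr according to the labels, and then α-amanitin at 2.5 µg/ml for 42 hr, which blocks the Pol II of the host. The study's methods give a shorter induction for the 3′ READS cells and keep doxycycline on together with α-amanitin. The groups differ in the expressed Rpb1, which was wild type in 5 libraries and R749H, a slowly elongating mutant, in 4 libraries. The titles name an Avitag on Rpb1 and the source names a B10 tag. Each genotype is 1 cell line, so the mutation and the line cannot be told apart, and p-values measure only the spread between these libraries.

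The libraries held 2479851 to 10135014 reads within 5 kb of a stop codon. R749H replicate 3 stood apart from the rest. Ends seen by only 1 read made up 6.60% of its 3′ ends, and between 30.05% and 36.2% in each of the other 8 libraries, so values without it are given beside the results that it moved most. Of the HEK293 markers, INA, VIM, KRT8 and KRT18 had reads in all 9 libraries, PAX2 had 85 reads in 8 libraries, NEFM had 2 reads and NEFL none. Of the markers of other cell types, PTPRC had 0 reads, CD3E and ALB had 3 reads each, and the muscle marker MYOD1 had 163 reads in 8 libraries, at up to 7.52 RPM (reads scaled to 1000000 per library). In these bulk cultures, less RNA per cell and fewer cells with the RNA cannot be told apart.

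Elongation factors hold Pol II on the template and help it through nucleosomes. SUPT4H1 and SUPT5H form DSIF, which closes the polymerase clamp over the DNA, and SUPT6H is a histone chaperone that rides on the linker to the Pol II tail. SUPT16H pairs with SSRP1 in FACT, which takes apart and rebuilds nucleosomes in the path of Pol II. The PAF complex binds the surface of the elongating enzyme and promotes histone modification in gene bodies. TCEA1, or TFIIS, reaches into a backtracked Pol II and stimulates cleavage of the nascent RNA, so that a stalled enzyme can resume.

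These proteins are made from mRNAs with very different 3′ ends, and the 30 nt before the cleavage point are shown for 11 ends of 6 genes. The sequences are the sense strand of GRCh37, written 5′ to 3′ up to the most used 3′ end of each poly(A) site. Capitals mark AATAAA or, where that was not found, ATTAAA, the hexamers that recruit the cleavage and polyadenylation machinery. Only the transcribed strand was searched, for these letters alone. The first sequences are from SUPT4H1 and SUPT6H, which each use a nearer and a farther site, at chr17:56423273-56423302 and chr17:56422539-56422568 on the minus strand, and at chr17:27028721-27028750 and chr17:27029219-27029248 on the plus strand.
SUPT4H1 nearer site: atgaacctcgagaaagttctgaaggccatg
SUPT4H1 farther site: gtattataaaggtgaaatacttttgctctc
SUPT6H nearer site: ccttttatgtccataaagtggcgtgaagtg
SUPT6H farther site: ctgtcatttgAATAAAcagtgtttctattg

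The next are the main ends of PAF complex genes, CTR9 (chr11:10801264-10801293, plus strand) and PAF1 (chr19:39876493-39876522, minus strand), with RTF1 (chr15:41775149-41775178, plus strand), whose most used end lies farthest from the stop codon among the 10 genes.
CTR9: acataatAATAAAattcttttaccaacttt
PAF1: ctttgctgttAATAAAgtcaacttctcttt
RTF1: gctgtgtAATAAAatttttattaaaactgc

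CDC73 spread its reads over many sites, and the 4 with at least 10% of its reads in either cell line are shown with their distance from the stop codon, from chr1:193220235-193220264, chr1:193220525-193220554, chr1:193222478-193222507 and chr1:193222997-193223026, all on the plus strand.
CDC73, 422 nt: tggtATTAAAttttagtctctggaacatcc
CDC73, 712 nt: gaaaaaaatctcaaaacacagATTAAAacc
CDC73, 2665 nt: taccagtATTAAAtgtgtttcctcttcctt
CDC73, 3184 nt: tcctaAATAAAaatttttctgactgctaac

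Together with the main ends of SUPT5H and LEO1, which are not shown, 13 ends of 8 genes were read in this way. Of these, 7 had AATAAA, 3 had ATTAAA and no AATAAA, and 3 had neither. The ATTAAA of the CDC73 end at 712 nt starts only 9 nt before the end, and the other matches start 19 to 26 nt before theirs. Whether each match is used as a signal was not tested. The 3 without a match were both SUPT4H1 ends and the nearer SUPT6H end. Among the main 3′ ends of 7874 genes, 65.4% had AATAAA in the same window, 16.2% had ATTAAA alone and 18.4% had neither. That set holds only the most used end of each gene, while the 13 ends include further sites of SUPT4H1, SUPT6H and CDC73, so the sets are not alike. At 10 of the 13 ends the next base of the genome is A, so the cleavage point is known only to within that run of A.

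The 10 genes covered a wide range of levels. Levels are given as RPM, reads scaled to 1000000 per library after TMM scaling, which sets the bulk of genes to the same level in each library. On the mean of the 2 group means, PAF1 was highest at 122 RPM, followed by SUPT16H at 69.2, SUPT6H at 55.5, SUPT4H1 at 43.1, RTF1 at 39.2 and CTR9 at 24.4. SUPT5H, TCEA1 and CDC73 lay far lower, at 8.60, 7.03 and 6.71 RPM, and LEO1 was close to the limit of detection. In this order, the ranges over the 9 libraries did not overlap between CTR9 and SUPT5H, nor between CDC73 and LEO1, and every other pair of neighbours overlapped. Among the 9494 genes tested, PAF1 stood at the 89.2 percentile of level, and CDC73 at the 29.5 percentile.

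**Figure D1:**
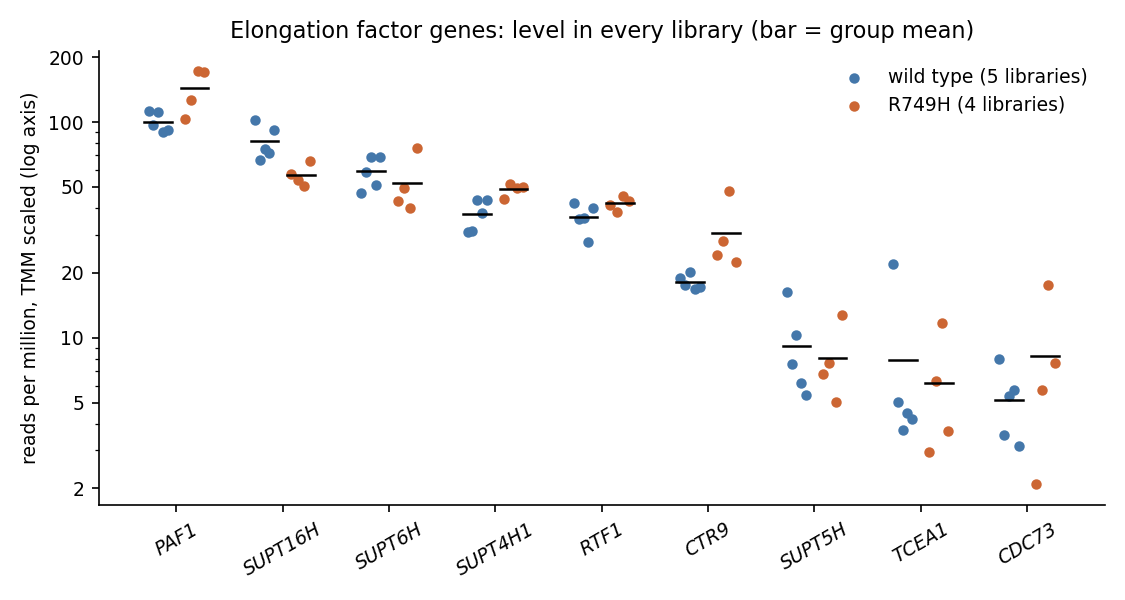
Level of 9 of the 10 genes in RPM (log axis, TMM scaled), with a point for each of the 5 wild-type (blue) and 4 R749H (orange) libraries and a bar at each group mean. The R749H points of CTR9 and SUPT4H1 lie above every wild-type point and those of SUPT16H lie below, and LEO1 is not drawn because it had 0 reads in most libraries.

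The subunits of one complex were not read at equal levels. In the PAF complex, PAF1 was read 3.58 to 7.65 times as often as CTR9 in the same library, and LEO1 was hardly read at all. LEO1 had 1, 3, 0, 4 and 1 reads in wild-type replicates 1 to 5 and 0 reads in each R749H library. The 0 reads in R749H allow up to 0.171 RPM over the 4 libraries (3 reads over the group, counting error only). The 9 reads of the wild-type libraries together make 0.293 RPM, a point value without a limit of its own. These values therefore do not show a difference between the groups. No test of LEO1 was made on so few reads. In DSIF, whose subunits bind each other, SUPT4H1 was read 1.90 to 9.79 times as often as SUPT5H. Only 3′ ends within 5 kb downstream of a stop codon are in the data, and how reads that fit several places in the genome were treated is not given in the sources used here. SUPT4H1 has 2 annotated processed pseudogenes, SUPT16H has 1 and TCEA1 has 4, so the levels of these genes are uncertain to that extent.

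The comparison of R749H with wild-type cells asks whether the RNAs of these factors differ when transcription is carried out by the slow enzyme. A limma fit on log2 RPM over all 9494 genes tested called 2265 genes at an adjusted p under 0.05, which is 23.9%, with 1038 genes (10.9%) higher and 1227 (12.9%) lower in R749H. LEO1 had too few reads to be tested. Of the 9 elongation factor genes tested, 1 rose (CTR9), 0 fell, and 8 did not pass. Their median log2 difference was 0.22, with 5 above 0 and 4 below, and that of all genes was -0.07. The groups did not overlap for 3 of the 9 genes, where 19.9% of all genes tested were so separated. At an unadjusted p under 0.05 there were 4 of the 9, against 37.4% of all genes.

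CTR9, the scaffold subunit on which the PAF complex is built, gave the one call. Its level was 18.9, 17.5, 20.2, 16.8 and 17.1 RPM in wild-type replicates 1 to 5, and 24.2, 27.9, 47.9 and 22.4 in R749H replicates 1 to 4. All 4 R749H libraries lay above all 5 wild-type libraries, and R749H replicate 3 was the highest by a wide margin. The mean was 18.1 ± 1.41 in wild type (SD, n = 5) and 30.6 ± 11.8 in R749H (SD, n = 4). On the log2 scale CTR9 was higher by 0.69 (SE 0.23, limma adjusted p = 0.0387), a 1.61-fold difference with a 95% interval from 1.15 to 2.25. Without R749H replicate 3 the log2 difference was 0.48 (limma adjusted p = 0.112), and the call was lost in 6 of the 9 fits that left out 1 library: those without R749H replicate 2 or 3 and those without wild-type replicate 2, 3, 4 or 5. With the authors' scaling alone it was 0.35 (limma adjusted p = 0.311), also past no threshold. The lowest R749H level, 22.4, came from replicate 4. Leaving out 1 library cannot make groups overlap that are apart, so the separation was not tested in this way.

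PAF1, the subunit that names the complex, was at 1.399 times its wild-type level in R749H but did not pass the test. It was read at 112, 97.3, 111, 89.9 and 92.0 RPM in wild-type replicates 1 to 5, and at 103, 127, 172 and 171 in R749H replicates 1 to 4. R749H replicate 1 fell within the wild-type range, and the other 3 lay above it. The log2 difference was 0.48 (SE 0.18, limma adjusted p = 0.0652), and DESeq2 on the recovered reads called it (adjusted p = 0.0249), as did limma without R749H replicate 1 (0.64, adjusted p = 0.0162). That was the only 1 of the 9 fits leaving out 1 library that called PAF1, and the lowest value was 0.41, without R749H replicate 4 (limma adjusted p = 0.158). With the authors' scaling alone the PAF1 difference was 0.14 (limma adjusted p = 0.601).

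RTF1, which stimulates ubiquitylation of histone H2B, differed little. It was read at 42.2, 35.7, 35.9, 27.9 and 40.0 RPM in wild-type replicates 1 to 5 and at 41.2, 38.4, 45.5 and 43.1 in R749H replicates 1 to 4. The ranges overlapped, and 2 of the 4 R749H libraries lay above every wild-type library. RTF1 differed by 0.22 on the log2 scale, with a 95% interval from -0.16 to 0.61 (limma adjusted p = 0.399). With the authors' scaling alone it was -0.12 (limma adjusted p = 0.669).

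CDC73, which encodes the tumour suppressor parafibromin, rested on 288 reads in all. It was read at 7.997, 3.55, 5.38, 5.74 and 3.15 RPM in wild-type replicates 1 to 5, and at 2.09, 5.75, 17.6 and 7.61 in R749H replicates 1 to 4. The R749H libraries held both the lowest and the highest value, and the highest was again replicate 3. Its log2 difference was 0.38, with a 95% interval from -0.62 to 1.37 (limma adjusted p = 0.595), and it was -0.08 without R749H replicate 3.

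SUPT16H, the large FACT subunit, lay lower in every R749H library. It was read at 102, 66.6, 74.9, 72.2 and 92.0 RPM in wild-type replicates 1 to 5, and at 57.4, 54.0, 50.3 and 65.9 in R749H replicates 1 to 4. The groups did not overlap, although R749H replicate 4 and wild-type replicate 2 were close to each other. The log2 difference was -0.51 (SE 0.18, limma adjusted p = 0.0510), a level of 0.704 times wild type with a 95% interval from 0.541 to 0.917. This lies at the threshold, with an adjusted p of 0.0497 by edgeR, 0.0294 by DESeq2 and 0.0436 by limma without a filter on low reads. Its partner SSRP1 was read at 424 ± 41.8 RPM in wild type (SD, n = 5) and 335 ± 77.3 in R749H (SD, n = 4), with overlapping groups and a log2 difference of -0.36 (limma adjusted p = 0.143), or -0.20 without R749H replicate 3. With the authors' scaling alone SSRP1 was at -0.70 (limma adjusted p = 0.00237).

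SUPT4H1, the small DSIF subunit, lay higher in every R749H library after TMM scaling but did not pass the test. It was read at 31.0, 31.3, 43.5, 38.1 and 43.7 RPM in wild-type replicates 1 to 5, and at 43.8, 51.8, 49.5 and 49.8 in R749H replicates 1 to 4. The groups did not overlap, but R749H replicate 1, at 43.82 RPM, and wild-type replicate 5, at 43.72 RPM, were almost level. On the log2 scale SUPT4H1 differed by 0.39 (SE 0.18, limma adjusted p = 0.1301). With the authors' scaling alone the difference was 0.05 (limma adjusted p = 0.869).

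SUPT5H, the large DSIF subunit, was read at 16.3, 7.52, 10.3, 6.19 and 5.42 RPM in wild-type replicates 1 to 5, and at 6.78, 7.67, 5.06 and 12.7 in R749H replicates 1 to 4. The ranges overlapped almost entirely, and the log2 difference was -0.15, with a 95% interval from -0.87 to 0.58 (limma adjusted p = 0.791). Its sign turned without R749H replicate 3 or wild-type replicate 1.

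SUPT6H was read at 47.0, 58.9, 69.0, 51.0 and 69.1 RPM in wild-type replicates 1 to 5, and at 43.1, 49.6, 39.9 and 75.6 in R749H replicates 1 to 4. R749H replicate 4 was the highest of all 9 libraries, while replicates 1 and 3 were the lowest. The log2 difference was -0.21, with a 95% interval from -0.66 to 0.24 (limma adjusted p = 0.502). It was -0.07 without R749H replicate 3 and -0.39 without R749H replicate 4. With the authors' scaling alone it was -0.55 (limma adjusted p = 0.0371). The 49 genes tested within 5 Mb of SUPT6H on chromosome 17 had a median log2 difference of -0.55, with 18 called lower and 4 higher, and the 611 genes tested on that chromosome had a median of -0.44. Around SUPT4H1, elsewhere on chromosome 17, the median of 41 genes was -0.05. The part of these regional differences in the levels of SUPT6H and SUPT4H1 was not tested. Around the other 8 genes the median lay between -0.15 and 0.10.

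TCEA1 was read at 22.1, 5.01, 3.75, 4.46 and 4.20 RPM in wild-type replicates 1 to 5, and at 2.96, 6.30, 11.7 and 3.69 in R749H replicates 1 to 4. Wild-type replicate 1, the library with the fewest reads, had 69 TCEA1 reads and stood far above the other 4. The log2 difference was -0.17 (limma adjusted p = 0.833) with it and 0.29 without it, and neither passed the test. It was also above 0, at 0.12 and 0.02, without R749H replicate 1 or 4, and it was -0.52 without R749H replicate 3.

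**Figure D2:**
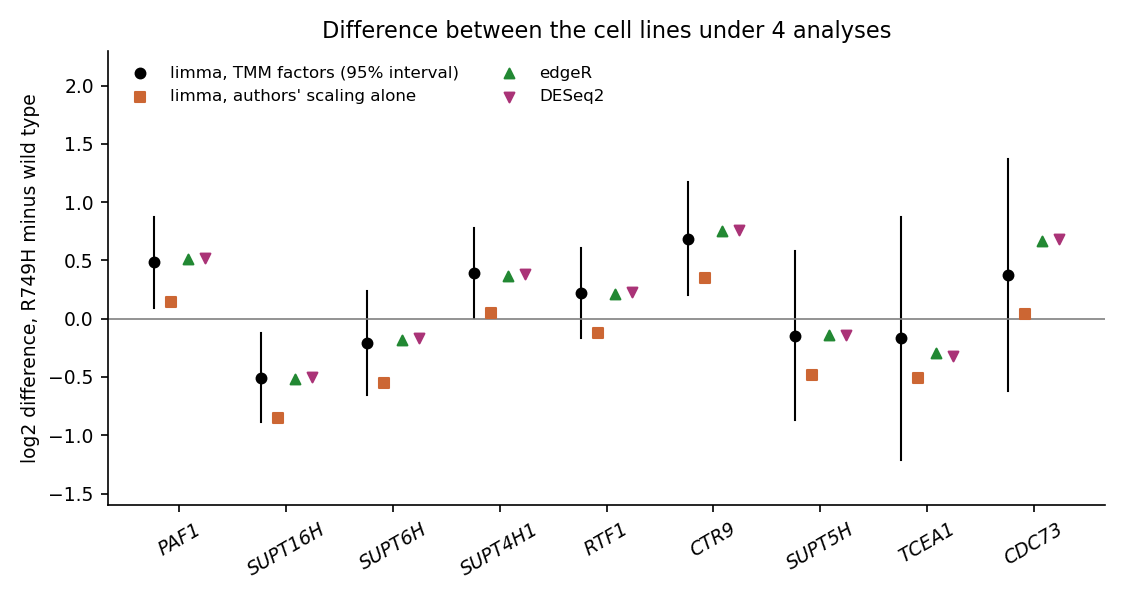
Log2 difference, R749H minus wild type, for the 9 genes tested, from limma with TMM factors (black, with the 95% interval), limma with the authors' scaling alone (orange), edgeR (green) and DESeq2 (purple). The orange points sit below the black ones by about 0.34 throughout, and the edgeR and DESeq2 points lie inside the limma interval for every gene.

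The scaling matters for these values. With the authors' scaling to the same number of poly(A) reads, and no further factors, the median log2 difference of all genes was -0.41, which is 0.34 lower than with TMM factors, and 3058 genes were called, 431 higher and 2627 lower. Of the 9 genes, SUPT16H (-0.85, limma adjusted p = 0.00310) and SUPT6H then passed, and CTR9 did not. The change of scaling moves every gene by nearly the same amount. Relative to the median of all genes, the difference was therefore 0.75 for CTR9 and -0.44 for SUPT16H with either scaling. All 9 genes kept their sign relative to that median for the same reason, so this is a description and not a check of the results.

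Ratios of reads within a library do not depend on scaling. These ratios were picked with the levels known and are given as a description. The ratio of CTR9 to SUPT16H reads was 0.186, 0.263, 0.270, 0.233 and 0.186 in wild-type replicates 1 to 5, and 0.421, 0.518, 0.952 and 0.339 in R749H replicates 1 to 4. PAF1 reads were 1.0 to 1.49 times those of SUPT16H in wild type and 1.80 to 3.41 times in R749H. Both ratios were higher in all 4 R749H libraries than in any wild-type library. The ratio of SUPT4H1 to SUPT6H was 0.532 to 0.746 in wild type and 1.02, 1.04, 1.24 and 0.659 in R749H replicates 1 to 4, so replicate 4 fell within the wild-type range. The ratio of RTF1 to PAF1, within the PAF complex, overlapped between the groups at 0.310 to 0.435 and 0.252 to 0.400.

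**Figure D3:**
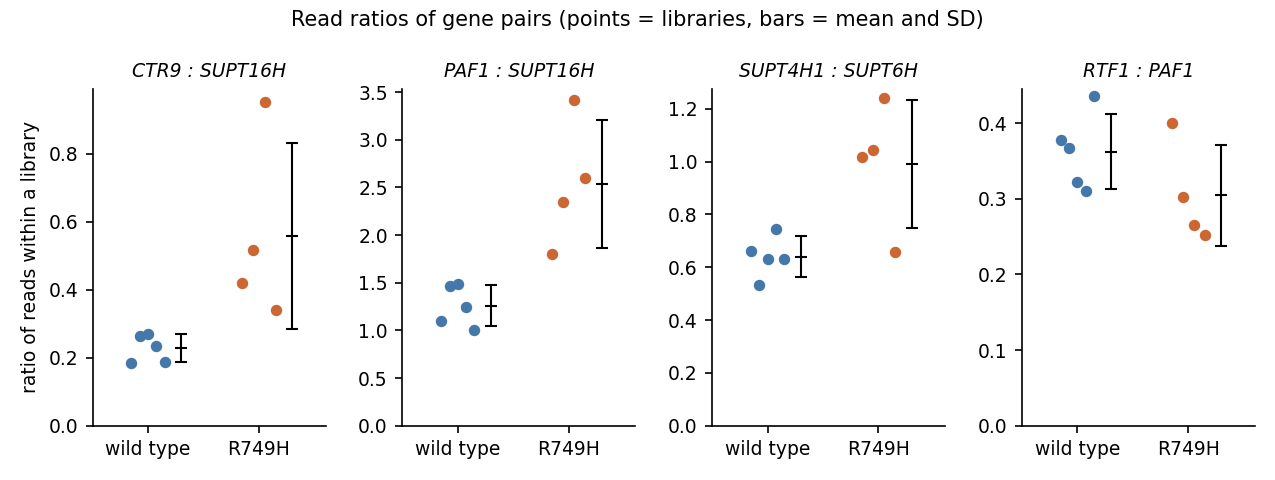
Ratio of the reads of 2 genes within each library, for 4 pairs of genes, with points for wild-type (blue) and R749H (orange) libraries and bars at the mean and SD. The CTR9 to SUPT16H and PAF1 to SUPT16H ratios are higher in all R749H libraries, and the RTF1 to PAF1 ratios overlap.

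The study asks how slow elongation changes the choice of poly(A) site, and a related question was put to these genes with other measures. Common 3′ ends no more than 24 nt apart were joined into sites, where a common end held over 5% of the reads of the largest end of its gene, or at least 5 reads where that end had fewer than 100. The 10 genes had 21 sites, with 1 site in 5 genes (SUPT5H, SUPT16H, PAF1, CTR9 and LEO1) and 2 or more in the other 5. The most used end was 62 nt from the stop codon in PAF1, 129 in LEO1, 267 in SUPT5H, 605 in SUPT6H, 641 in CTR9, 1194 in SUPT16H, 1547 in TCEA1 and 2293 in RTF1. Each of these ends lies in an annotated 3′ UTR of its gene. The LEO1 end also lies within TMOD3, which runs on the opposite strand, and the SUPT4H1 sites lie within TSPOAP1-AS1 on the opposite strand. The nearer SUPT4H1 site is also inside ENSG00000285897, a gene on the same strand, so its reads cannot be told apart from those of that gene.

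Of the 9271 sites tested in all genes, limma called 36 (0.388%), 18 higher (0.194%) and 18 lower (0.194%) in R749H, and 1421 (15.3%) had an unadjusted p under 0.05. Among the sites of these genes, 12 sites of 5 genes could be tested, 0 passed and 0 had an unadjusted p under 0.05. The smallest adjusted p was 0.474, for the nearer SUPT4H1 site. In none of the 12 did the groups separate, against 6.51% of all sites.

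SUPT4H1 was the gene with a pair of sites in near balance. Its nearer site, with the modal end 334 nt from the stop codon, and its farther site, at 1068 nt, lie 734 nt apart and are the first 2 sequences above. A further SUPT4H1 site, 102 nt from the stop codon, took 2.10% ± 0.972 in wild type (SD, n = 5) and 2.19% ± 0.730 in R749H (SD, n = 4), and was too small to be tested. The nearer site took 49.5%, 50%, 65.2%, 51.2% and 35.2% of SUPT4H1 reads in wild-type replicates 1 to 5, and 56.3%, 60.3%, 63.4% and 58.3% in R749H replicates 1 to 4. The R749H libraries were close to each other and lay inside the wild-type range, which is set by replicates 3 and 5. The mean share was 50.2% ± 10.6 (SD, n = 5) in wild type and 59.6% ± 3.02 (SD, n = 4) in R749H, a log2 odds difference of 0.55 with a 95% interval from -0.21 to 1.30 (limma adjusted p = 0.474). The farther site took 42.6% ± 10.3 (SD, n = 5) and 34.7% ± 4.46 (SD, n = 4), a log2 odds difference of -0.48 with an interval from -1.24 to 0.28 (limma adjusted p = 0.534). The reads of the nearer site were 0.599 to 2.15 times those of the farther one in wild type and 1.39 to 2.04 times in R749H.

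SUPT6H used a minor site 107 nt and a main site 605 nt from the stop codon. The nearer site, which had neither hexamer, took 14.3%, 18.4%, 18.0%, 13.0% and 8.86% of the reads in wild-type replicates 1 to 5, and 13.7%, 12.7%, 28.0% and 14.0% in R749H replicates 1 to 4. R749H replicate 3 stood above every other library, and the other 3 of its group lay within the wild-type range. The log2 odds difference was 0.25, with a 95% interval from -0.53 to 1.04 (limma adjusted p = 0.759), and -0.07 without R749H replicate 3. The main site took 76.7% ± 4.50 (SD, n = 5) in wild type and 77.9% ± 5.53 (SD, n = 4) in R749H. Farther ends at 1052 and 1058 nt were too small to be common ends, formed no site and were not tested on their own. The end at 1052 nt had 8, 12, 2, 22 and 8 reads in wild-type replicates 1 to 5 and 1, 6, 0 and 0 in R749H replicates 1 to 4. The end at 1058 nt had 2, 5, 3, 11 and 4 reads in wild type and 1, 0, 0 and 0 in R749H.

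**Figure D4:**
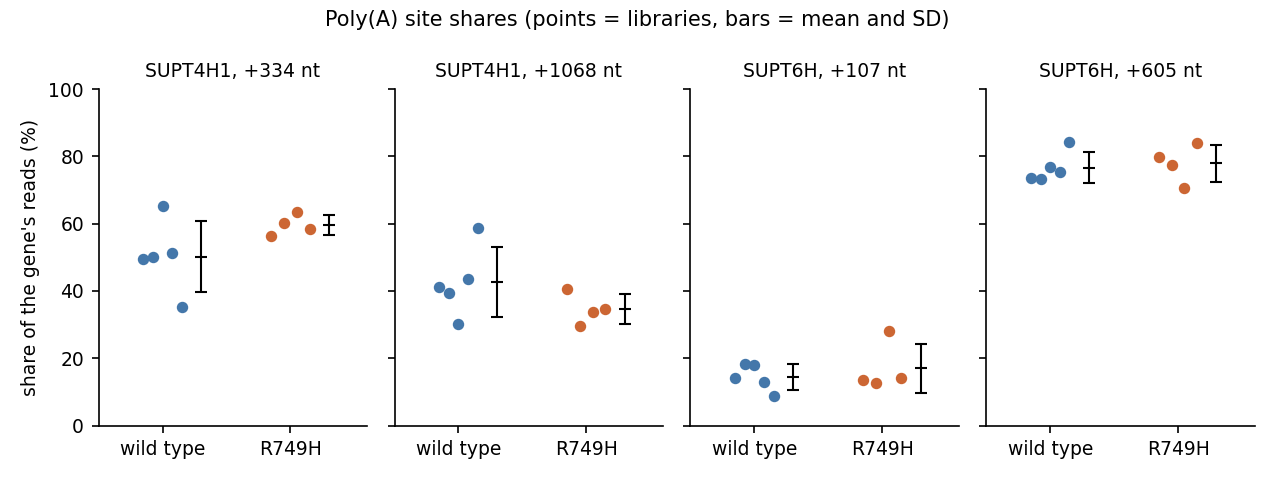
Share of the reads of SUPT4H1 and SUPT6H at the poly(A) sites that held at least 10% of the gene, in percent, with points for wild-type (blue) and R749H (orange) libraries and bars at the mean and SD. The groups overlap at all 4 sites, and the R749H points of the nearer SUPT4H1 site, from 56.3% to 63.4%, are closer together than the wild-type points, from 35.2% to 65.2%.

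CDC73 was the most dispersed of the 10 genes, with 7 sites between 295 and 4212 nt from the stop codon. Its most used single end, 422 nt from the stop codon, held 11.1% of the reads. The site around it took 20.4% ± 13.4 (SD, n = 5) in wild type and 24.9% ± 23.9 (SD, n = 4) in R749H, the site at 712 nt took 10.1% ± 5.88 and 13.0% ± 9.16, that at 2665 nt took 8.42% ± 7.13 and 11.3% ± 3.03, and that at 3184 nt took 11.7% ± 8.78 and 8.90% ± 8.93. With 12 to 66 CDC73 reads per library, none of these shares could be separated from its spread. The limma adjusted p of the 4 sites was 0.610 or more.

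RTF1 ended almost wholly 2293 nt from the stop codon, where its site took 85.9% ± 4.44 of the reads in wild type (SD, n = 5) and 84.1% ± 2.88 in R749H (SD, n = 4). TCEA1 ended mainly 1547 nt from the stop codon, with 91.8% ± 6.47 and 94.3% ± 5.18 of its reads at that site.

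Shifts were also measured over the whole gene, as the log2 odds that a read lies downstream of the median position of the gene in the pooled reads. A negative value means a smaller part of the reads past that position in R749H. In SUPT6H and RTF1 that position is the most used end, at 605 and 2293 nt, with 69.8% and 80.2% of the reads. Their values therefore concern only the reads past that end, and both SUPT6H sites named above have their modal end on the near side. Over 7760 genes, limma called 2 (0.0258%), 731 genes (9.42%) had an unadjusted p under 0.05, and the median was -0.09. None of the 9 elongation factor genes tested passed, 0 had an unadjusted p under 0.05, and in 0 did the groups separate, against 4.32% of all genes. The values furthest from 0 were -1.04 for CDC73 (95% interval -2.50 to 0.41, limma adjusted p = 0.629) and 0.79 for RTF1 (-0.20 to 1.79, limma adjusted p = 0.602). SUPT4H1 was at -0.46 (-1.16 to 0.25, limma adjusted p = 0.647) and SUPT6H at -0.40 (-0.92 to 0.13, limma adjusted p = 0.617). When 1 library was left out, the shift ranged from -1.35 to -0.57 for CDC73, 0.39 to 0.98 for RTF1, -0.64 to -0.23 for SUPT4H1 and -0.52 to -0.28 for SUPT6H, with the RTF1 value at its lowest without R749H replicate 3. With division at the midpoint between the outermost common ends, the RTF1 shift was 0.0055. For each of these 4 genes the interval includes no shift as well as a shift of larger size than the estimate.

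At the scale of nucleotides, SUPT16H and CTR9 each held a cluster of at least 4 common ends no more than 4 nt apart. The CTR9 cluster ran over 8 positions with 4 ends, and 12.7% of its reads in wild type and 14.8% in R749H lay downstream of its median position, a log2 odds difference of 0.20 (limma adjusted p = 0.897) that was -0.090 without R749H replicate 3. The SUPT16H cluster, of 5 ends from 1179 to 1185 nt from the stop codon, had 39.8% and 43.5% of its reads downstream, a difference of 0.23 (limma adjusted p = 0.870). Over all 989 clusters tested, limma called 0 (0%) and 46 (4.65%) had an unadjusted p under 0.05, and of the 2 clusters here 0 did. The groups separated in 1.92% of all clusters and in 0 of these 2. The median log2 odds difference of all clusters was -0.036, and 55.2% of them lay below 0. The study instead took medians of R749H to wild-type ratios over pairs of ends within clusters, in pooled reads. That measure was not computed here, so these counts do not test its result. The most used end of SUPT16H, at 1194 nt and outside that cluster, alone held 48.9% of the wild-type and 45.6% of the R749H reads of the gene.

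**Figure D5:**
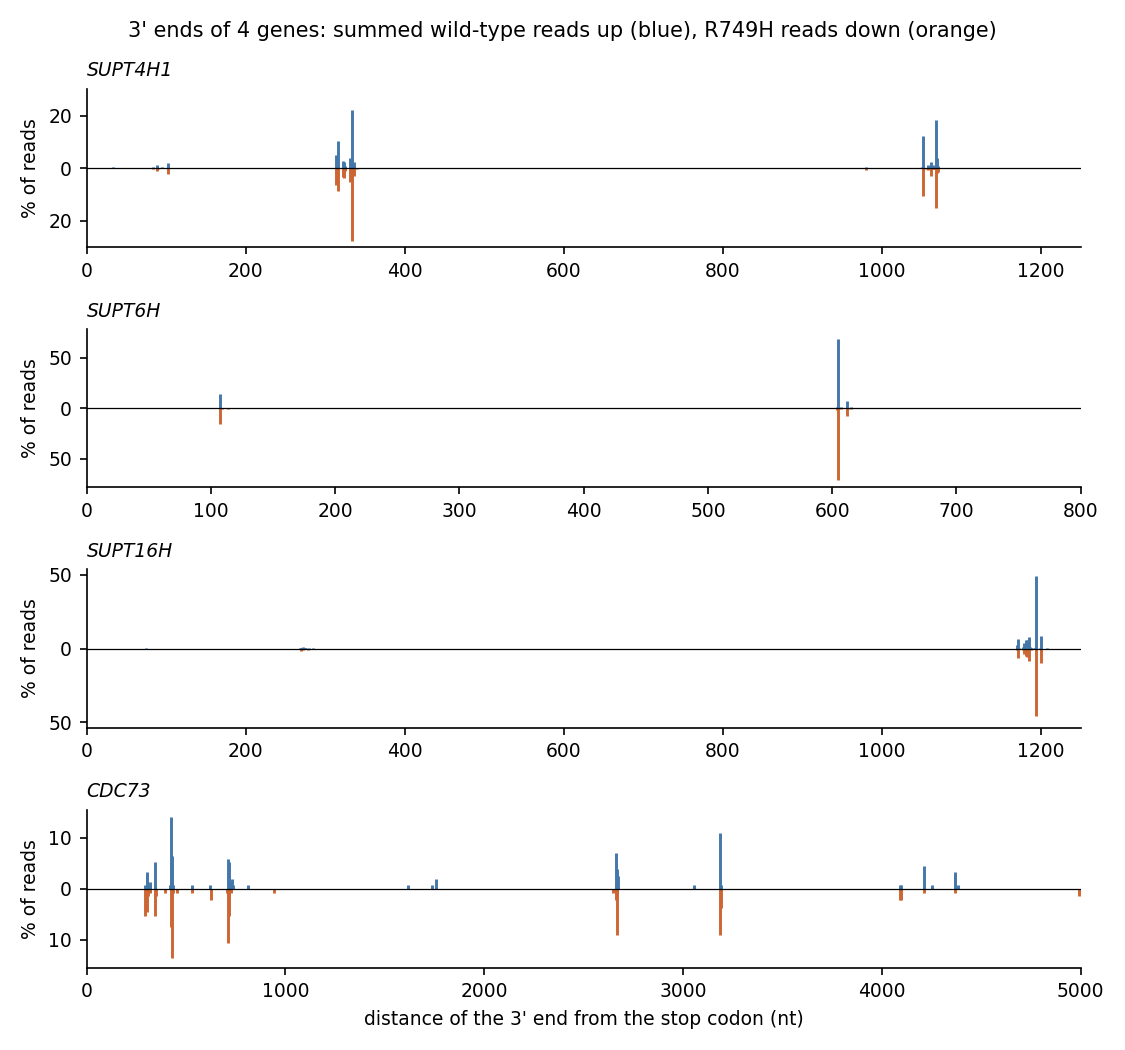
Position of 3′ ends of SUPT4H1, SUPT6H, SUPT16H and CDC73 in nt from the stop codon, with the percent of summed wild-type reads drawn upward (blue) and of R749H reads downward (orange). In both cell lines the reads fall mainly in 2 groups in SUPT4H1 and SUPT6H and in 1 group in SUPT16H, and they spread over many ends in CDC73, of which 40 had reads in wild type and 32 in R749H. The SUPT6H panel does not reach its ends at 1052 and 1058 nt.

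Other genes of transcription elongation were read from a list of 24, of which 19 were tested. In R749H, 2 of these rose, 2 fell and 15 did not pass, with a median log2 difference of 0.12. The share called is close to that of all genes, of which 23.9% were called, 10.9% higher and 12.9% lower. UBE2A, an enzyme that ubiquitylates histone H2B with the help of the PAF complex, rose most, by 1.32 (SE 0.20, limma adjusted p = 0.000390). It was read at 28.5, 28.8, 29.4, 30.7 and 26.6 RPM in wild-type replicates 1 to 5 and at 46.1, 84.9, 76.9 and 89.0 in R749H replicates 1 to 4, and the groups were well apart. GTF2F2, the small subunit of TFIIF, rose by 0.76 (SE 0.21, limma adjusted p = 0.0173), from 15.2 ± 2.54 RPM (SD, n = 5) to 25.5 ± 3.75 (SD, n = 4), but with the authors' scaling alone the log2 difference was 0.41 (limma adjusted p = 0.173).

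TCEA2, a TFIIS gene related to TCEA1, fell by 0.85 (SE 0.17, limma adjusted p = 0.00239), from 213 ± 38.2 RPM in wild type (SD, n = 5) to 117 ± 13.8 in R749H (SD, n = 4), without overlap. It was read far more than TCEA1 in every library. PHF3, which carries a domain related to TFIIS and binds the Pol II tail, fell by 1.07 (SE 0.34, limma adjusted p = 0.0301), from 10.3 ± 2.67 RPM (SD, n = 5) to 5.14 ± 2.43 (SD, n = 4), with overlap, and the call was lost without wild-type replicate 1, 2 or 5 or R749H replicate 2 or 3 (limma adjusted p up to 0.0879). WDR61, a further subunit of the PAF complex, was read at 11.98 ± 2.47 (SD, n = 5) and 12.9 ± 1.12 (SD, n = 4) RPM, a log2 difference of 0.13 (limma adjusted p = 0.719) that was -0.21 with the authors' scaling alone.

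The gene whose log2 level followed each member most closely over the 9 libraries was found among 9493 genes. It was FAM110A for SUPT4H1 (Pearson r = 0.970), RPS19BP1 for SUPT5H (0.947), SLAIN2 for SUPT6H (0.945) and SSBP1 for SUPT16H (0.964). For the PAF complex genes it was RBM14-RBM4 for PAF1 (0.971), PPP1R2 for CTR9 (0.968), CEP55 for CDC73 (0.952) and KLC4 for RTF1 (0.898), and for TCEA1 it was PPP6R3 (0.963). These are descriptions over the same 9 libraries of 2 cell lines, which differ in depth, and none of the closest genes was another member of the group.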

How the data were processed

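Poly(A) RNA was measured by 3′ READS in 5 wild-type and 4 R749H libraries, grouped by their labels. Per the study's methods, the authors removed 4 random nt and leading Ts, truncated reads to at most 77 nt, mapped them to hg19 (GRCh37) with no mismatch in the first 30 nt, retained those ending in non-templated As and gave each 3′ end to a stop codon up to 5 kb upstream. For this mapping the study's methods name bowtie. The submitters' processing notes list Bowtie2 2.3.2, which the study's methods name for the eNETseq libraries. The deposited values are signal, the reads at each 3′ end, which the authors had scaled to 7 M poly(A) reads in every replicate and 25 M in a pooled cell line. These were divided by the smallest step of each library, and 100% came out as whole reads within 0.006. The 9 libraries then held 2479851 to 10135014 reads, and read-based limits cover counting error only. In GRCh37 the coordinates of 99.8% of gene entries end at a stop codon.

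Gene totals were scaled with TMM factors, filtered with filterByExpr and tested with limma 3.58.1 (trend, prior of 0.5 reads) in R 4.3.3, because the deposited values are scaled. Log2 odds of sites, genes and clusters were tested with limma where libraries held 20 reads or more on average. A site had to hold at least 5% of its gene. Benjamini-Hochberg adjustment ran over all features, with a threshold of 0.05. edgeR 4.0.16, DESeq2 1.42.0, RLE factors, the authors' scaling alone, other filters, priors, site definitions, a replicate block and each library left out in turn were the alternatives, and the fit of replicates 1 to 4 without a block was added after seeing the data. The tests were tried on simulated data, where the test of log2 odds recovered few changes in genes with few reads and made more false calls than its threshold allows in genes with many. The 10 genes, the gene lists and the tests were chosen with earlier results of these data known. Genes named were the 10, WDR61, SSRP1, up to 6 further elongation genes past the threshold with the largest change, and the gene most like each member. Sites named held at least 10% of a gene in either pooled line. The 4 eNETseq libraries are not analysed here. Annotation was GENCODE lifted to GRCh37. Some sequences are not reported here.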

Additional observations from a re-analysis of the deposited data

Results flagged for a closer look

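In 47 sets of libraries (the level of each gene and the share of each named site, in each cell line), 1 library stood far from the others of its group in 4, by the gap to its nearest neighbour relative to the range of the group. Chance flags about 1 in 20 such sets. TCEA1 was at 22.1 RPM in wild-type replicate 1, the highest of its group. The CDC73 site 712 nt from the stop codon had a share of 0% in wild-type replicate 1, of 25 CDC73 reads. The CTR9 site 641 nt from the stop codon had a share of 94.4% in R749H replicate 3, the lowest of its group. The nearer SUPT6H site, 107 nt from the stop codon, had a share of 28.0% in the same replicate, the highest of its group. The cause of these values was not tested.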

How the results depend on the processing

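Number called among the 10 genes for expression, 1 with limma, was 2 with the authors' scaling alone (SUPT16H and SUPT6H), 2 with edgeR (CTR9 and SUPT16H), 3 with DESeq2 (CTR9, PAF1 and SUPT16H) and 0 to 2 when 1 library was left out. Without a filter on low reads it was 1 again, but SUPT16H in place of CTR9 (adjusted p = 0.0516). CTR9 lay between 0.48 and 0.83 in those fits, and SUPT16H between -0.58 and -0.42, with 0 of the 9 past the threshold. The same fits called 1520 genes (without R749H replicate 2) to 2664 (without R749H replicate 1) for expression, 1 to 5 genes for shifts, 4 to 77 sites and 0 clusters. For sites, 3 were called with ends common in both cell lines and 17 with ends joined up to 4 nt. For shifts, 6 genes were called with division at the midpoint and 5 with a prior of 0.1 reads.

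Signs turned for RTF1 (-0.12) and WDR61 (-0.21) with the authors' scaling alone, for the SUPT16H shift with division at the midpoint (-0.11), for the SUPT5H shift with a prior of 0.1 reads (-0.27), for the site shares of CDC73 at 422 nt (-0.74) and TCEA1 at 1547 nt (-0.15) with ends joined up to 4 nt, and for the SUPT16H cluster with ends joined up to 8 nt (-0.26). None of these was called in either fit, and the cause was not tested. Leaving out 1 library in turn also turned signs that no fit called. Expression then lay between -0.084 and 0.91 for CDC73, -0.37 and 0.089 for SUPT5H, and -0.52 and 0.29 for TCEA1. Shifts lay between -0.088 and 0.23 for CTR9, -0.21 and 0.052 for PAF1, and -0.45 and 0.36 for SUPT5H. Site shares lay between -0.71 and 0.66 for CDC73 at 422 nt, -0.15 and 1.24 at 712 nt and -1.03 and 0.40 at 3184 nt, -0.074 and 0.39 for SUPT6H at 107 nt and -0.068 and 0.30 at 605 nt, and -0.25 and 1.22 for TCEA1 at 1547 nt. The CTR9 cluster lay between -0.090 and 0.46.

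Replicates 1 to 4 of the cell lines share only a number: the correlation of their deviations from the group means was -0.070 to 0.051, and 0 of 4 R749H libraries was closest to the wild-type library of its own number. With the replicate block, 0 of the 10 genes, 1 gene for shifts and 16 sites were called. The PAF1 shift (0.052) and the CDC73 site at 422 nt (-0.095) turned sign. Both had the same values without wild-type replicate 5 and with no block. Replicates 1 to 4 without a block also gave 0 of the 10 genes, and CTR9 was lost in both fits (limma adjusted p = 0.0547 with the block, 0.0559 without). Both fits leave out wild-type replicate 5, and the fit without a block is the same as the fit without that library above. Its loss of CTR9 is therefore not a further one, and the cause of the loss was not tested. Every 3′ end carried 1 gene name, so leaving out ends shared by gene names changed nothing and was not run.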
